A study of Mus musculus with 16 samples.

Results

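The transcripts of 10 cytokine receptor genes were followed in germinal centre B cells that carry a lymphoma mutation of Ezh2 and in their controls. The genes were taken by symbol from the deposited count table, which lists 49584 genes, and all 10 had enough reads to be among the 15240 genes tested. They are Il21r, Il4ra, Il2rg and Il9r of the common gamma chain family, Il6ra and Il6st of the gp130 family, and Il10ra, Ifngr1, Ifngr2 and Ifnar1 of the class II family.

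RNA was sequenced in 16 libraries of centrocytes and centroblasts. The cells had been sorted from the spleen 8 days after sheep red blood cells were given, and the C57BL/6J animals were aged 3 months. The groups were mutant centrocytes (Ezh2(Y641F)fl/wt;Cγ1-cre), control centrocytes (Cγ1-cre alone), mutant centroblasts and control centroblasts, with 4 libraries each. Every mouse thus carried Cγ1-cre, a Cre recombinase made from the Cγ1 immunoglobulin locus, which is switched on in B cells that have been activated, and the mutants had in addition 1 conditional allele. Both populations were B220+, FAS+ and CD38- by the sort labels, centrocytes being CXCR4- and CD86+ and centroblasts CXCR4+ and CD86-. The labels place all libraries in litter 1 and give each a number from 1 to 4, without saying that a number marks a mouse, so the p-values measure the spread between these libraries. Naive B cells are named in the design text and are not analysed here.

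In a germinal centre, centroblasts divide and mutate their antibody genes in the dark zone, and centrocytes compete in the light zone for help from T follicular helper cells. That help includes IL-21 and IL-4, and receptors for IL-6, IL-10 and interferons are also carried by B cells. Each of these receptors joins a ligand-binding chain to a partner chain, and signals through JAK kinases that phosphorylate STAT factors, while SOCS proteins shut the signal off. EZH2 is the catalytic subunit of Polycomb repressive complex 2, which lays down a repressive histone mark, in mammals mainly at promoters rich in CpG, and Y641F is a change found in germinal centre lymphomas.

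Libraries held 35230563 to 44466911 counted reads. Cxcr4 and Cd86 ran with the labels, Cxcr4 averaging 160 ± 23.6 CPM in mutant centrocytes against 401 ± 20.9 CPM in mutant centroblasts, and 197 ± 10.9 CPM in control centrocytes against 444 ± 17.0 CPM in control centroblasts (SD, n = 4 each). Cd38, for which both populations were sorted negative, was higher in centrocytes without overlap. It had 122 ± 22.4 CPM in mutant centrocytes against 49.6 ± 13.5 CPM in mutant centroblasts, and 90.6 ± 22.4 CPM in control centrocytes against 43.1 ± 12.7 CPM in control centroblasts. CPM, the usual unit of library-scaled counts, is here the read count over the TMM-scaled library total. Ezh2 itself was 189 ± 15.2 CPM in mutant centrocytes against 245 ± 15.04 CPM in control centrocytes, and 222 ± 32.0 CPM in mutant centroblasts against 289 ± 42.0 CPM in control centroblasts, a count that does not separate the mutant allele from the normal one. Y-linked transcripts came to 251 to 391 CPM in 8 libraries and to 0.128 to 1.49 CPM in the other 8. Libraries 1 and 2 of every group were therefore taken as male and libraries 3 and 4 as female, so sex was balanced between the groups.

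RNA of other cell types was measured with marker lists. The summed level of 20 macrophage markers was 59.8 to 400.4 CPM in mutant centrocytes, with libraries 3 and 4 at 394 and 400.4 CPM, against 89.9 to 152 CPM in control centrocytes. In centroblasts it was 42.6 to 126 CPM in mutants against 32.9 to 99.5 CPM in controls. No macrophage marker was at 0 in a whole group, and Marco, Siglec1 and Timd4 averaged under 1 CPM in every group. The sum of 12 T cell markers was 292 to 328 CPM in mutant centrocytes against 216 to 314 CPM in control centrocytes, and 171 to 201 CPM in mutant centroblasts against 111 to 175 CPM in control centroblasts, led by Lck, with Cd3e, Cd3d and Cd3g under 1 CPM in every group and Themis at 0 in both mutant groups. The sum of 6 dendritic cell markers was 103 to 155 CPM in mutant centrocytes against 58.3 to 64.5 CPM in control centrocytes, and 89.4 to 139.6 CPM in mutant centroblasts against 65.2 to 70.8 CPM in control centroblasts, led by Flt3, with Zbtb46, Xcr1, Siglech and Clec9a under 1 CPM. Neutrophil and stromal marker sums stayed at or under 3.12 CPM in every library. The naive B cell and plasma cell sums overlapped between genotypes. The part of other cells in the receptor levels was not tested beyond the left-out libraries given below. Mutant centrocyte libraries 3 and 4 are also the female ones of their group, so leaving them out removes that sex as well. Calls between genotypes in centrocytes then numbered 1224 of 16029 genes, against 2517 of 15240 with all libraries.

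Set per kilobase of exon, so that genes can be compared with each other, the 10 levels spanned more than 100-fold in every group. Il21r, the receptor for the T follicular helper cytokine IL-21, stood highest, at 150 ± 23.3 CPM per kb in mutant centrocytes, 146 ± 7.06 in control centrocytes, 99.2 ± 8.73 in mutant centroblasts and 90.0 ± 9.37 in control centroblasts (SD, n = 4 each). Il2rg, the common gamma chain that Il21r, Il4ra and Il9r share, came next, at 118 ± 10.03, 110 ± 5.31, 66.3 ± 5.35 and 61.7 ± 1.99 CPM per kb in the same order of groups. Il4ra, the chain that binds IL-4, followed at 78.8 ± 11.4, 65.3 ± 3.73, 59.5 ± 5.91 and 53.6 ± 10.5 CPM per kb. Libraries of Il21r and Il2rg overlapped in mutant centrocytes alone, and those of Il2rg and Il4ra in both centroblast groups.

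The order in the middle of this scale differed between genotypes. Il10ra, the ligand-binding chain of the IL-10 receptor, stood above Ifngr1 in the mutants, at 41.2 ± 3.30 CPM per kb in mutant centrocytes and 31.0 ± 2.43 in mutant centroblasts, and below it in the controls, at 25.9 ± 1.78 in control centrocytes and 20.1 ± 1.92 in control centroblasts. Ifngr1, the chain that binds interferon gamma, was at 37.6 ± 3.66 CPM per kb in mutant centrocytes, 32.1 ± 2.82 in control centrocytes, 28.9 ± 2.33 in mutant centroblasts and 28.1 ± 2.36 in control centroblasts. Libraries of this pair overlapped in both mutant groups and did not overlap in either control group.

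Ifngr2, the signalling chain of the same receptor, and Ifnar1, a chain of the type I interferon receptor, lay lower, between 6.45 and 14.1 CPM per kb as group means. At the foot came Il9r, Il6ra and Il6st. Il6st, which encodes gp130, the signalling chain of the IL-6 family, was lowest in every group, at 0.552 ± 0.123 CPM per kb in mutant centrocytes, 1.11 ± 0.254 in control centrocytes, 0.304 ± 0.0670 in mutant centroblasts and 0.624 ± 0.171 in control centroblasts. Its count was still 92 to 634 reads in each library, and every other receptor gene had at least 138. Il2rg shares its strand with Gm20489, a gene model that overlaps it, so how reads were divided between them is uncertain.

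**Figure D1:**
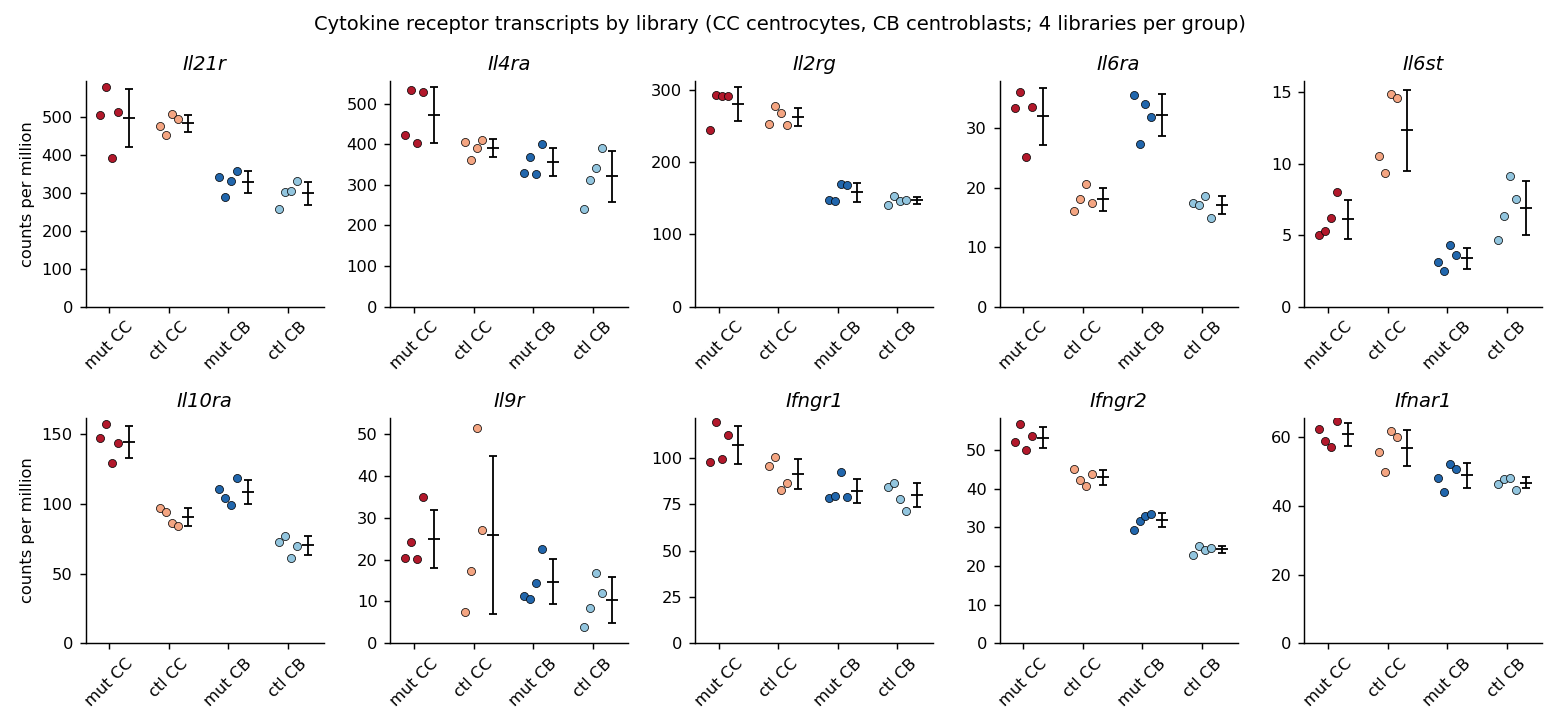
Level of each receptor gene in CPM (vertical axes, each from 0) in mutant (mut) and control (ctl) centrocytes (CC) and centroblasts (CB). Points are the 4 libraries of a group, and the bar beside them is the mean ± SD. Il6ra, Il10ra and Ifngr2 lie above control in both mutant groups and Il6st below, with no overlap of libraries, while Il9r of control centrocytes spreads between 7.49 and 51.5 CPM.

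The mutants were set against their controls first. Of the 10 receptors, Il6ra, Il10ra and Ifngr2 were higher and Il6st was lower in mutant than in control cells, in centrocytes and in centroblasts alike, whereas Il21r, Il4ra, Il2rg, Il9r, Ifngr1 and Ifnar1 did not pass the test in either cell type, apart from Il4ra, Ifngr1 and Ifnar1 in centrocytes once GC content and gene length were corrected for. The test was edgeR's quasi-likelihood test with Benjamini-Hochberg adjustment over all tested genes and a threshold of 0.05. In centrocytes 4 of 10 were called, 3 of them higher and 1 lower, against 16.5% of all tested genes called, 7.37% higher and 9.15% lower. In centroblasts the same 4 of 10 were called in the same directions, against 10.5% of all tested genes, 4.06% higher and 6.4% lower. The median log2 change of the 10 was 0.16 in centrocytes and 0.15 in centroblasts, beside 0.00 and 0.01 over all tested genes. In bulk RNA, fewer cells that carry a transcript and less of it per cell cannot be told apart.

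The correction for GC content and length moved the balance of all calls and is given beside the counts. With it, 4329 genes were called in centrocytes, 2740 of them higher, against 2517 and 1123 without it, and 2747 in centroblasts, 1564 of them higher, against 1595 and 619. Of the receptors, 7 were then called in centrocytes, 6 higher and 1 lower, and 4 in centroblasts, 3 higher and 1 lower. Those added were Il4ra at 0.36 (adjusted p = 0.00757), Ifngr1 at 0.25 (adjusted p = 0.0455) and Ifnar1 at 0.21 (adjusted p = 0.0317), each a log2 change in centrocytes under edgeR.

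**Figure D2:**
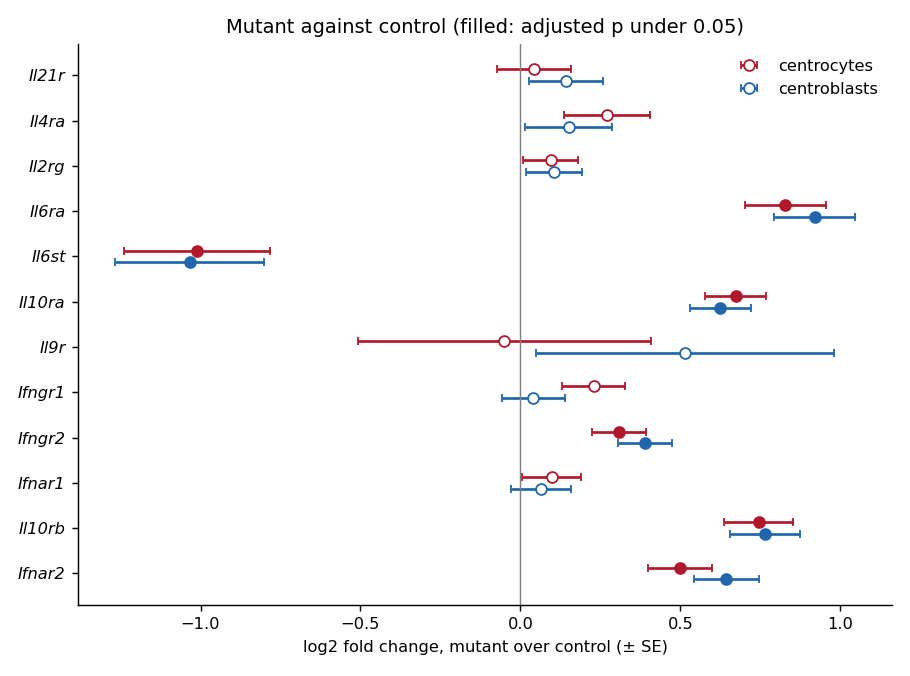
Log2 fold change of mutant over control (horizontal axis, ± SE) for the 10 receptors and for Il10rb and Ifnar2, partner chains described with the class II family, in centrocytes and centroblasts (4 libraries per group). Filled points passed an adjusted p of 0.05 in edgeR, and these are Il6ra, Il6st, Il10ra, Ifngr2, Il10rb and Ifnar2 in both cell types. Il4ra, Ifngr1 and Ifnar1 also pass in centrocytes when GC content and length are corrected for.

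Il6ra encodes the chain that binds IL-6, and lies on the minus strand of chromosome 3 (chr3:89864059-89913196, GRCm38). It had 33.3, 36.1, 25.1 and 33.6 CPM in mutant centrocytes, against 16.1, 18.0, 20.6 and 17.4 CPM in control centrocytes. In centroblasts its level was 35.5, 27.3, 34.0 and 31.8 CPM in mutants, against 17.4, 17.0, 18.6 and 14.96 CPM in controls. The lowest mutant library lay above the highest control library in each cell type, and this lowest one, mutant centrocyte library 3, was among the pair with most macrophage RNA. The log2 change was 0.83 ± 0.13 in centrocytes (SE, 1.78-fold, edgeR adjusted p = 0.000364) and 0.92 ± 0.13 in centroblasts (1.89-fold, adjusted p = 0.000167). Without mutant centrocyte libraries 3 and 4 it was 0.95 in centrocytes (adjusted p = 0.000983).

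Il6st, on the plus strand of chromosome 13 (chr13:112464070-112510086), moved the other way. It had 4.99, 5.29, 6.20 and 8.03 CPM in mutant centrocytes, against 10.5, 9.35, 14.9 and 14.6 CPM in control centrocytes. Mutant centroblasts had 3.12, 2.52, 4.28 and 3.58 CPM, against 4.66, 6.35, 9.15 and 7.53 CPM in control centroblasts. All mutant libraries lay below all control libraries of the same cell type, and the gene fell by 1.01 ± 0.23 on the log2 scale in centrocytes (2.01-fold, edgeR adjusted p = 0.00598) and by 1.03 ± 0.23 in centroblasts (2.05-fold, adjusted p = 0.00719). Without mutant centrocyte libraries 3 and 4 the log2 change was -1.26 in centrocytes (adjusted p = 0.0165).

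The receptor for IL-6 thus had more message for its ligand-binding chain and less for gp130. Per kilobase of exon, the ratio of Il6ra to Il6st was 5.19 to 8.76 in mutant centrocytes against 1.53 to 2.48 in control centrocytes. In centroblasts it was 10.2 to 14.6 in mutants against 2.55 to 4.80 in controls. The ratio was therefore above that of every control library of the same cell type in all 8 mutant libraries. It is a ratio of transcripts, given as a description with no test. Il11ra1, Lifr and Il27ra, chains that pair with gp130 for IL-11, LIF and IL-27, did not pass the test between genotypes in either cell type.

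**Figure D3:**
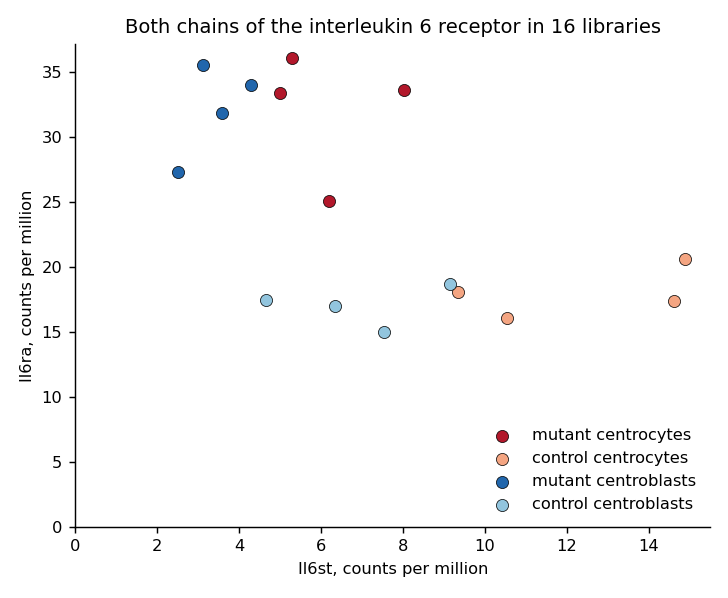
Il6ra (vertical axis) against Il6st (horizontal axis), both in CPM, with 1 point per library and colour by group. The 8 mutant libraries, at 25.1 to 36.1 CPM of Il6ra, lie above and to the left of the control libraries of the same cell type, at 14.96 to 20.6 CPM.

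The sequence upstream of these genes is shown because EZH2 acts mainly at promoters rich in CpG, and because Il6ra and Il6st moved apart. RefSeq promoter windows (GRCm38.p6) matched 9 of the 10 genes, Il10ra being the other. Each line gives the 250 bases before the transcript start, read 5′ to 3′ on the gene's strand, with every CpG in capitals, for the 3 called receptors that had a window and for Il21r, the highest receptor and uncalled between genotypes.
Il6ra (chr3:89913197-89913446, minus strand): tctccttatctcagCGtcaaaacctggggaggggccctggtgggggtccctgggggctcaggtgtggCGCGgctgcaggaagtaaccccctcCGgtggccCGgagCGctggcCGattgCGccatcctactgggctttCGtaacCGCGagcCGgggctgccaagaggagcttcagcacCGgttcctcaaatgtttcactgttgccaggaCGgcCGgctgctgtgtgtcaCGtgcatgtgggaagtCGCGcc
Il6st (chr13:112463820-112464069, plus strand): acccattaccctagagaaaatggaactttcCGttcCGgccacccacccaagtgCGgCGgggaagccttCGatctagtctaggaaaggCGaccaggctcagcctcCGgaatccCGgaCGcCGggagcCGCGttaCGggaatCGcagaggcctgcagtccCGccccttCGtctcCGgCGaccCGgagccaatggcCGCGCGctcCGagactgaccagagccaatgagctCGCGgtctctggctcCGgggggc
Ifngr2 (chr16:91546809-91547058, plus strand): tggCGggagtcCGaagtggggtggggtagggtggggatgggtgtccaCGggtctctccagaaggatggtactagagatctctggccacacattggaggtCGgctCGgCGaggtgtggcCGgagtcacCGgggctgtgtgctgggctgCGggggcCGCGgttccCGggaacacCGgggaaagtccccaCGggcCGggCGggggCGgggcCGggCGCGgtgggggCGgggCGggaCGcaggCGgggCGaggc
Il21r (chr7:125603179-125603428, plus strand): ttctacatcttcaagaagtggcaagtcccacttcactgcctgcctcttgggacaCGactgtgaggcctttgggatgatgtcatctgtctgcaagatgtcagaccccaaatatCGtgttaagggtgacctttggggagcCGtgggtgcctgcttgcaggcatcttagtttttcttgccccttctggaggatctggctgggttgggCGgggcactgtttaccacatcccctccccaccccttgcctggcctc

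Il6ra had 18 CpG in this window, Il6st 26 and Ifngr2 25, beside a median of 6 over 32841 RefSeq windows. Il21r had 4, Il2rg 3 and Il9r 5. Ifnar1, Il4ra and Ifngr1, which passed only in centrocytes with GC content and length corrected for, had 19, 17 and 11. Whether CpG number goes with the calls was not tested. STAT-type elements were searched by letters on both strands. TTCNNNGAA was in none of the 9 windows and in 7.02% of all windows, and TTCNNNNGAA was in that of Ifngr2 alone and in 5.85% of all. A match is a run of letters and not a site shown to be bound. The start of Ifngr2, Ifnar1 and Il4ra differs between RefSeq and the GENCODE annotation used for the gene coordinates. The Il4ra window (chr7:125552021-125552270) runs past its GENCODE start at 125552120, so part of it lies inside the gene in that annotation.

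In the class II family, both chains of the IL-10 receptor were higher in the mutants. Il10ra, which binds IL-10 and lies on chromosome 9 (chr9:45253837-45269149, minus strand), had 147, 157, 129 and 144 CPM in mutant centrocytes, against 97.3, 94.1, 86.5 and 84.1 CPM in control centrocytes. In centroblasts the mutants had 111, 104, 99.1 and 119 CPM, against 72.8, 77.2, 61.3 and 69.6 CPM in controls. The groups did not overlap, and the log2 change was 0.67 ± 0.096 in centrocytes (1.59-fold, edgeR adjusted p = 0.000196) and 0.63 ± 0.096 in centroblasts (1.54-fold, adjusted p = 0.000342). Without mutant centrocyte libraries 3 and 4 it was 0.76 in centrocytes (adjusted p = 0.0013).

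Its partner chain Il10rb, which the receptors for IL-22 and interferon lambda also use, had 48.6, 48.2, 66.7 and 57.8 CPM in mutant centrocytes, against 31.6, 34.0, 34.9 and 31.6 CPM in control centrocytes. Centroblasts had 27.5, 31.1, 32.8 and 31.7 CPM in mutants, against 17.5, 18.6, 18.1 and 18.3 CPM in controls. No library of the groups overlapped, with log2 changes of 0.74 ± 0.11 in centrocytes (edgeR adjusted p = 0.000231) and 0.76 ± 0.11 in centroblasts (adjusted p = 0.000202). The highest values were those of mutant centrocyte libraries 3 and 4, and without them the change in centrocytes was 0.56 (adjusted p = 0.00552). IL-10 itself was a scarce transcript in these cells, Il10 averaging 0.758 ± 0.274 CPM in mutant centrocytes.

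Ifngr2, the signalling chain of the interferon gamma receptor, was higher by a smaller margin. It had 52.2, 56.7, 50.2 and 53.8 CPM in mutant centrocytes, against 45.1, 42.2, 40.7 and 43.9 CPM in control centrocytes. Centroblasts had 29.4, 31.6, 32.9 and 33.4 CPM in mutants, against 23.0, 25.2, 24.3 and 24.7 CPM in controls. Libraries did not overlap in either cell type, and the log2 change was 0.31 ± 0.085 in centrocytes (1.24-fold, edgeR adjusted p = 0.0189) and 0.39 ± 0.085 in centroblasts (1.31-fold, adjusted p = 0.00584). The call in centrocytes was not held by every setting, the adjusted p being 0.0527 without mutant centrocyte libraries 3 and 4, 0.0616 without control centrocyte library 2, 0.0657 without control centrocyte library 3, 0.0759 without mutant centrocyte library 2 and 0.0545 without mutant centrocyte library 4. With no filter on low counts it was 0.183 in centrocytes and 0.0826 in centroblasts.

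The ligand-binding chain Ifngr1 did not pass the test. It had 97.8, 119, 99.2 and 112 CPM in mutant centrocytes against 95.7, 100.4, 82.9 and 86.7 CPM in control centrocytes, a log2 difference of 0.23 with a 95% interval of 0.02 to 0.44 (edgeR adjusted p = 0.125). In centroblasts it had 78.7, 79.5, 92.2 and 78.8 CPM in mutants against 84.1, 86.5, 77.9 and 71.5 CPM in controls, a log2 difference of 0.04 with an interval of -0.17 to 0.25. These libraries overlapped. The ratio of Ifngr1 to Ifngr2 per kilobase was 2.48 to 2.78 in mutant centrocytes against 2.61 to 3.14 in control centrocytes, and 3.12 to 3.71 in mutant centroblasts against 3.83 to 4.84 in control centroblasts.

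Ifngr2 and Ifnar1 lie in a cluster of class II receptor genes on chromosome 16, in the order Ifnar2, Il10rb, Ifnar1 and Ifngr2 on the plus strand (chr16:91372783-91565623). Of these 4 neighbours, 3 were higher in both mutant cell types and Ifnar1 was not called without the correction for GC content and length. This was looked at after the values were seen. Higher calls made up 7.37% of all tested genes in centrocytes and 4.06% in centroblasts. Ifnar2, the partner of Ifnar1 in the type I interferon receptor, had 27.7, 28.9, 26.5 and 29.4 CPM in mutant centrocytes against 19.9, 21.0, 19.1 and 19.5 CPM in control centrocytes. In centroblasts it had 20.9, 22.5, 23.8 and 25.1 CPM in mutants against 13.03, 17.0, 14.6 and 14.5 CPM in controls. The log2 change of Ifnar2 was 0.50 ± 0.10 in centrocytes (edgeR adjusted p = 0.00286) and 0.64 ± 0.10 in centroblasts (adjusted p = 0.000434), again with no overlap.

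Ifnar1 lay between these genes and showed no called difference without the correction for GC content and length. With it, Ifnar1 passed in centrocytes (log2 change 0.21, edgeR adjusted p = 0.0317). It had 62.4, 59.0, 57.3 and 64.7 CPM in mutant centrocytes, against 55.7, 49.8, 61.8 and 60.0 CPM in control centrocytes. In centroblasts it had 48.2, 44.2, 52.3 and 50.8 CPM in mutants, against 46.4, 47.8, 48.1 and 44.7 CPM in controls. The log2 difference was 0.10 with a 95% interval of -0.10 to 0.29 in centrocytes, and 0.06 with an interval of -0.13 to 0.26 in centroblasts.

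The common gamma chain family had the highest receptor transcripts, and no member passed the test between genotypes without the correction named above. Il21r had 506, 580, 393 and 515 CPM in mutant centrocytes against 477, 455, 508 and 496 CPM in control centrocytes. Its centroblast levels were 342, 289.5, 331 and 357 CPM in mutant centroblasts against 257, 303, 304 and 332 CPM in control centroblasts. Its log2 difference was 0.04 with a 95% interval of -0.20 to 0.29 in centrocytes, and 0.14 with an interval of -0.10 to 0.39 in centroblasts. Mutant centrocyte library 3 was the lowest of the centrocyte libraries, and the groups overlapped.

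Il4ra had 423, 535, 405 and 529 CPM in mutant centrocytes against 406, 361, 391 and 410.4 CPM in control centrocytes. Its centroblast levels were 330.2, 370.2, 326 and 401 CPM in mutants against 241, 312, 341 and 392 CPM in controls, with overlap. The log2 difference was 0.27 with an interval of -0.01 to 0.56 in centrocytes (edgeR adjusted p = 0.182), and 0.15 with an interval of -0.13 to 0.44 in centroblasts (adjusted p = 0.565). Il2rg had 245, 293, 292 and 293 CPM in mutant centrocytes against 253, 278, 268 and 252 CPM in control centrocytes. Centroblasts had 148, 146, 169.7 and 169 CPM of it in mutants against 141, 153, 146 and 148 CPM in controls, and its intervals were -0.09 to 0.28 in centrocytes and -0.08 to 0.29 in centroblasts. A change larger than these bounds is outside the intervals, and a smaller one cannot be told from none at this spread. Il21r and Il4ra are neighbours on chromosome 7, with 23955 bases between them.

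Il9r, the receptor for the T cell cytokine IL-9, varied most from library to library. It had 20.5, 24.2, 20.2 and 34.9 CPM in mutant centrocytes against 7.49, 17.1, 51.5 and 27.1 CPM in control centrocytes. In centroblasts it had 11.3, 10.6, 14.5 and 22.5 CPM in mutants against 3.83, 8.47, 16.9 and 11.99 CPM in controls. The log2 difference between genotypes was -0.05 with a 95% interval of -1.01 to 0.91 in centrocytes, and 0.51 with an interval of -0.46 to 1.49 in centroblasts, so these data bound it loosely.

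The spread of Il9r tended to be shared by libraries of the same number. These are also of the same sex, so number and sex cannot be told apart here. Measured from its group mean, the same-numbered centrocyte and centroblast libraries of a genotype lay on the same side in 7 of 8 pairs for Il9r, in 8 of 8 for Il6st and in 4 to 7 of 8 for the other receptors. In both control groups the female libraries 3 and 4 lay above the male libraries 1 and 2. In the mutants the female libraries were above the male ones in centroblasts and not in centrocytes. Split by sex, the log2 change of Il9r in centrocytes was -0.51 in females and 0.86 in males, a difference of -1.37 ± 0.58 (SE, adjusted p = 0.501 in an edgeR fit of 8 groups of 2 libraries that was added after the data were seen).

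**Figure D4:**
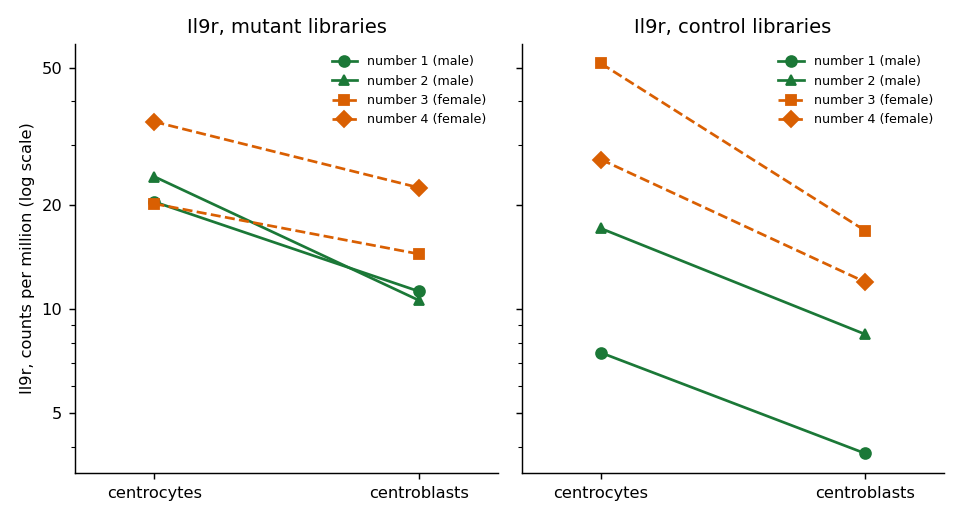
Il9r in CPM (vertical axis, log scale) in centrocytes and centroblasts, for mutant libraries on the left and control libraries on the right. Each line joins the libraries of 1 number and genotype, solid for males and dashed for females by Y-linked transcripts. The lines of the control libraries do not cross, from 7.49 and 3.83 CPM for number 1 to 51.5 and 16.9 CPM for number 3.

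The changes of the called receptors were then set apart by sex and by cell type. In centrocytes the log2 change of Il6ra was 0.63 in females and 1.02 in males, of Il6st -1.05 and -0.95, of Il10ra 0.68 and 0.67, and of Ifngr2 0.30 and 0.32. In centroblasts it was 0.97 in females and 0.87 in males for Il6ra, -1.08 and -0.96 for Il6st, 0.74 and 0.52 for Il10ra, and 0.44 and 0.34 for Ifngr2. Each of these 4 receptors kept its direction in both sexes, and none of the 10 passed the test of a sex difference, which called 7 genes of all tested in centrocytes and 41 in centroblasts.

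The difference of the genotype change between centrocytes and centroblasts was called for 0 of the 10 receptors and for 0% of all genes by edgeR, with 0 receptors and 429 genes at an unadjusted p under 0.05. DESeq2 called 0 receptors and 1 gene. This difference was -0.09 for Il6ra with a 95% interval of -0.47 to 0.29, and 0.02 for Il6st with an interval of -0.65 to 0.70. It was 0.05 for Il10ra with an interval of -0.24 to 0.33, and -0.08 for Ifngr2 with an interval of -0.33 to 0.17. The centrocyte and centroblast comparisons share no library, but they come from the same fit and were not shown to be independent. Same-numbered libraries lay on the same side of their group means in 8 of 8 pairs for Il6st and in 7 of 8 for Il10ra.

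No library of the groups overlapped for Il6ra, Il6st, Il10ra and Ifngr2 in either cell type, 4 of 10 in each, where libraries did not overlap for 23.5% of all tested genes in centrocytes and 14.4% in centroblasts. Levels of these genes ran closest with other genes over the 16 libraries as follows, by Pearson correlation of log2 CPM among 9782 genes, as a description in which groups and libraries are shared. Il6ra ran with Dlg5 (r = 0.937), Cxcr3 (0.931) and Aff3 (0.916), and Il6st with Peak1 (0.957), Uhrf1bp1 (0.941) and Fam168a (0.936). Il10ra ran with Pecam1 (0.977), Gm42835 (0.952) and Cnr2 (0.949), and Ifngr2 with Ncf1 (0.984), Sh3bp2 (0.983) and Trabd2b (0.983). Among the receptors, the lowest correlation was that of Il6ra with Il6st (-0.604) and the highest that of Il2rg with Ifngr2 (0.935).

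The nearest tested genes at each locus were read as well. Leaving receptors out, 1 of 18 such neighbours was called in each cell type, against 16.5% of all tested genes in centrocytes and 10.5% in centroblasts. In centroblasts it was Ankrd55, 80068 bases from Il6st, at 0.420, 0.438, 0.778 and 1.13 CPM in mutants against 1.303, 1.70, 2.62 and 3.22 CPM in controls (log2 change -1.67 ± 0.44, edgeR adjusted p = 0.0189, and 0.0664 without mutant centroblast library 1 or 0.0687 without library 2). In centrocytes it was Tmprss13, 49951 bases from Il10ra, whose count was at most 5 reads per mutant library and at most 25 per control library (edgeR adjusted p = 0.0182, and 0.0520 without control centrocyte library 3). The neighbours of Il6ra were uncalled, Ube2q1 differing by 0.01 in each cell type and Atp8b2 by 0.21 in centrocytes and 0.28 in centroblasts on the log2 scale.

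Most receptors were higher in centrocytes than in centroblasts in both genotypes. In mutants, 8 of 10 receptors were higher in centrocytes than in centroblasts and 0 were lower, against 8.92% of all tested genes higher, 7.07% lower and 16% called in either direction. In controls, 7 of 10 were higher and 0 lower, against 14.9% of all tested genes higher, 12.9% lower and 27.8% called. The median log2 difference of the 10 was 0.50 in mutants and 0.53 in controls, beside 0.02 and 0.00 over all tested genes. With GC content and length corrected for, 4019 genes were called in mutants, 1610 of them higher, against 2438 and 1360 without it, and 5889 in controls, 2270 of them higher, against 4230 and 2270. Of the receptors, 7 were then called in mutants and 7 in controls, all higher. Under this correction Ifngr1 was gained in controls (0.25, edgeR adjusted p = 0.0349) and Il10ra was lost there, while Il4ra was lost in mutants. These comparisons use the same libraries as those between genotypes.

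Markers of other cell types moved with the cell type as well. The sum of 10 naive follicular B cell markers was 1532 to 1733 CPM in mutant centrocytes against 861 to 1045 CPM in mutant centroblasts, and 1524 to 1941 CPM in control centrocytes against 732 to 1032 CPM in control centroblasts, without overlap. Of these markers 4 were called higher in mutant centrocytes and 0 lower, and 5 were called higher in control centrocytes and 1 lower. Of 20 macrophage markers 6 were called higher in mutant centrocytes than in mutant centroblasts, with a median log2 difference of 1.67, and 1 was called higher in control centrocytes, with a median of 0.90. The T cell sums given above were also higher in centrocytes without overlap, and plasma cell markers summed to 1582 to 1986 CPM in mutant centrocytes against 2502 to 3353 CPM in mutant centroblasts, and to 1528 to 1753 CPM in control centrocytes against 2512 to 2784 CPM in control centroblasts. Their part in the receptor differences was not tested. Mutant centrocyte libraries 3 and 4 held most macrophage RNA and are the female ones. Without them, 5 of 10 receptors were called higher in mutant centrocytes, against 1894 of 16029 genes called.

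In the common gamma chain family, Il2rg and Il21r were higher in centrocytes in both genotypes. Il2rg was higher by 0.83 ± 0.089 on the log2 scale in mutants (edgeR adjusted p = 4.69e-06) and by 0.84 ± 0.089 in controls (adjusted p = 2.86e-06), and Il21r by 0.60 ± 0.12 in mutants (adjusted p = 0.00173) and by 0.69 ± 0.12 in controls (adjusted p = 0.000313). Both kept every library of the centrocytes above every library of the centroblasts. Il4ra was higher by 0.41 ± 0.14 in mutants at an adjusted p of 0.0497, and differed by 0.29 in controls (adjusted p = 0.128). Its call in mutants was lost without any of mutant centroblast libraries 1, 2 and 3 or mutant centrocyte libraries 1, 2 and 4 (edgeR adjusted p of 0.058 to 0.146), and in controls it was called without centroblast library 4 (adjusted p = 0.0411). With GC content and length corrected for, its difference was 0.22 in mutants (adjusted p = 0.0843) and 0.031 in controls (adjusted p = 0.824).

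The class II family followed. Ifngr2 was higher in centrocytes by 0.74 ± 0.085 in mutants (edgeR adjusted p = 1.17e-05) and by 0.82 ± 0.085 in controls (adjusted p = 2.71e-06), with no overlap of libraries. Il10ra was higher by 0.41 ± 0.096 in mutants (adjusted p = 0.00604) and by 0.37 ± 0.097 in controls (adjusted p = 0.00894). Ifnar1 was higher by 0.32 in mutants (adjusted p = 0.0268) and by 0.28 in controls (adjusted p = 0.0317). The call of Ifnar1 was lost in mutants without any of centroblast libraries 1 and 2 or centrocyte libraries 1, 2 and 4 (adjusted p of 0.052 or more), and in controls without any of centroblast libraries 2, 3 and 4 or centrocyte libraries 3 and 4 (adjusted p of up to 0.112). That of Il10ra in controls was lost with GC content and length corrected for (adjusted p = 0.0990). Ifngr1 was higher by 0.38 in mutants (adjusted p = 0.0137, and 0.0592 without mutant centrocyte library 2), and differed by 0.19 in controls (adjusted p = 0.164), where it passed with GC content and length corrected for. The interaction test did not call a gap between genotypes.

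The chains of the IL-6 receptor parted here as well. Il6st was higher in centrocytes by 0.86 ± 0.23 in mutants (edgeR adjusted p = 0.0171) and by 0.83 ± 0.23 in controls (adjusted p = 0.0113), while Il6ra was -0.01 ± 0.13 in mutants and 0.08 ± 0.13 in controls, the control value being -0.08 with GC content and length corrected for. The interval of Il6ra was -0.27 to 0.26 in mutants and -0.18 to 0.35 in controls. Without mutant centrocyte libraries 3 and 4, the difference of Il6st in mutants was 0.61 (adjusted p = 0.168), and the adjusted p was 0.0668 without mutant centrocyte library 4 and 0.0637 without mutant centroblast library 2.

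Il9r was higher in centrocytes by 1.33 ± 0.47 in controls (edgeR adjusted p = 0.0431), with libraries that overlap, and differed by 0.76 ± 0.46 in mutants (adjusted p = 0.294). In controls the call was lost without any of centroblast libraries 1, 2 and 4 or centrocyte libraries 3 and 4, and the difference was 0.74 (adjusted p = 0.244) without centrocyte library 3. Same-numbered mutant libraries deviated together, as did some of different number. With the replicate number as a block Il9r was higher by 0.79 in mutants (edgeR adjusted p = 0.00237). This brought the receptors called there to 9 of 10, with 2759 of 15240 genes called under the block against 2438 without it. All 8 same-numbered pairs had more Il9r in the centrocyte library than in the centroblast library. Libraries of centrocytes and centroblasts did not overlap for 8 of 10 receptors in mutants, against 22.1% of all tested genes, and for 6 of 10 in controls, against 27.7%.

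**Figure D5:**
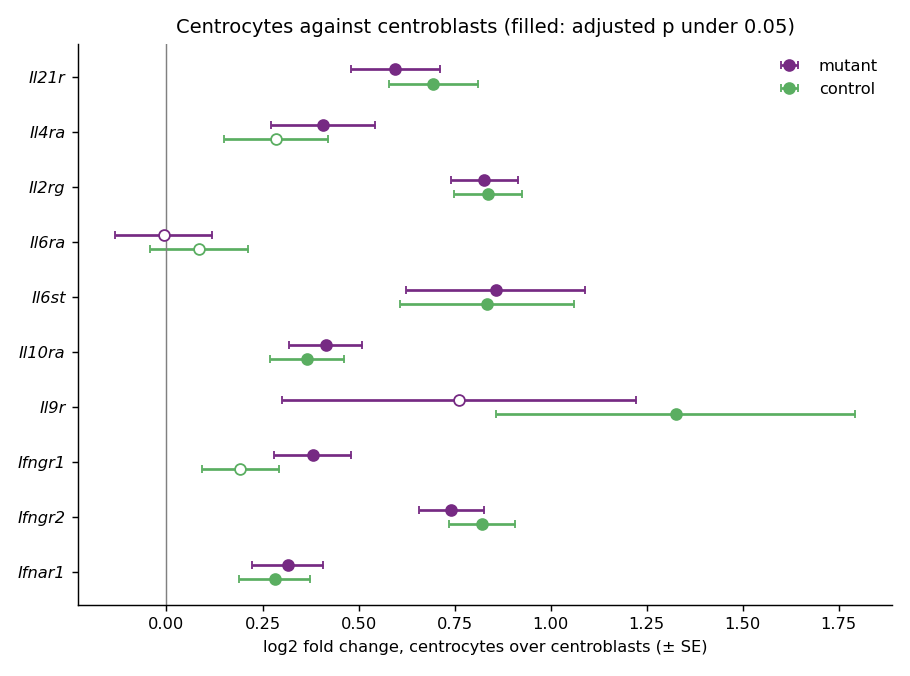
Log2 fold change of centrocytes over centroblasts (horizontal axis, ± SE) for the 10 receptors in mutants and controls (4 libraries per group). Filled points passed an adjusted p of 0.05 in edgeR, 8 in mutants and 7 in controls, all of them above 0. Il6ra sits at -0.01 in mutants and 0.08 in controls, the control value turning to -0.08 with GC content and length corrected for.

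The rest of the pathway was read from lists. Of 18 tested partner receptor chains, 5 were higher and 3 lower in mutant than in control centrocytes, and 2 were higher and 1 lower in centroblasts, with medians of -0.06 and 0.35 on the log2 scale beside 0.00 and 0.01 over all tested genes. Of all tested genes 7.37% were higher and 9.15% lower in centrocytes, and 4.06% higher and 6.4% lower in centroblasts, and the counts of every list here stand beside those shares. Besides Il10rb and Ifnar2, Csf2rb, Il5ra and Il12rb1 were higher in centrocytes. Csf2rb, the shared signalling chain of the receptors for IL-3, IL-5 and GM-CSF, had 31.6 ± 5.30 CPM in mutant centrocytes against 18.8 ± 3.61 CPM in control centrocytes (log2 change 0.74 ± 0.17, edgeR adjusted p = 0.00569). Il5ra, which binds IL-5, had 25.8 ± 3.68 CPM in mutant centrocytes against 14.4 ± 0.821 CPM in control centrocytes (0.85 ± 0.21, adjusted p = 0.011), and the change was 0.68 without mutant centrocyte libraries 3 and 4 (adjusted p = 0.127). Il12rb1, a chain of the IL-12 and IL-23 receptors, changed by 0.49. Ifnlr1, which binds interferon lambda beside Il10rb, was lower by -0.96 on the log2 scale in centrocytes and by -0.99 in centroblasts. Il2rb, of the IL-2 and IL-15 receptors, changed by -0.87 and Csf2ra, which binds GM-CSF, by -0.69, both in centrocytes. The calls in centrocytes without mutant centrocyte libraries 3 and 4 were lost for Csf2ra (-0.42, edgeR adjusted p = 0.314), Il2rb (adjusted p = 0.156), Ifnlr1 (adjusted p = 0.157) and Il12rb1 (adjusted p = 0.0951), and that of Csf2rb was kept (adjusted p = 0.0455).

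Of the kinases behind the receptors, 0 of 4 JAK kinases were called in either cell type, where 16.5% of all tested genes were called in centrocytes and 10.5% in centroblasts. Jak1 passed in both cell types with GC content and length corrected for. Its log2 change was then 0.35 in centrocytes (edgeR adjusted p = 0.0133) and 0.32 in centroblasts (adjusted p = 0.0265). Jak1 was at 692 ± 68.6 CPM in mutant centrocytes against 603 ± 49.1 CPM in control centrocytes, and at 731 ± 44.2 CPM in mutant centroblasts against 646 ± 95.2 CPM in control centroblasts. Of 7 STAT factors, 0 were called in centrocytes and 1, Stat2, was higher in centroblasts by 0.26 (edgeR adjusted p = 0.0473). Of 9 tested feedback inhibitors, 2 were lower in each cell type, Socs2 and Socs5, which encode SOCS proteins. In centrocytes Socs5 changed by -0.66 ± 0.18 and Socs2 by -1.01 ± 0.32 on the log2 scale, both no longer called without mutant centrocyte libraries 3 and 4 (adjusted p = 0.0887 for Socs5 and 0.0813 for Socs2). In centroblasts Socs5 had 2.33 ± 0.628 CPM in mutants against 4.35 ± 0.149 CPM in controls (log2 change -0.89 ± 0.18, edgeR adjusted p = 0.00293), and Socs2 had 0.316 ± 0.0424 CPM in mutants against 0.888 ± 0.121 CPM in controls (-1.48 ± 0.35, adjusted p = 0.00943). Socs2 thus averaged under 1 CPM in both centroblast groups, and its call there rests on few reads.

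Few ligands were measured in the B cells, with 5 of 17 listed genes tested. Ebi3, a subunit of the gp130 cytokine IL-27, was higher in mutants, at 21.3 to 25.0 CPM in mutant centrocytes against 9.67 to 11.0 CPM in control centrocytes (log2 change 1.19 ± 0.20, edgeR adjusted p = 0.000774). In centroblasts it was at 7.05 to 11.0 CPM in mutants against 1.61 to 4.13 CPM in controls (1.51 ± 0.21, adjusted p = 0.000165). It passed the test in every setting tried. Il15, which encodes IL-15, changed by -1.54 in centroblasts (adjusted p = 0.0396).

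Genes that respond to these cytokines were read next. Of 6 IL-4 response genes, Ighg1 was higher by 0.64 and Ighe was lower by -1.80 on the log2 scale in centrocytes, 1 in each direction, and 0 were called in centroblasts. Neither passed without mutant centrocyte libraries 3 and 4 (edgeR adjusted p = 0.147 for Ighg1 and 0.0981 for Ighe). Of 7 STAT3 response genes, 2 were lower in centrocytes, Pim1 and Prdm1, against 9.15% of all tested genes lower there, and 0 were called in centroblasts, against 10.5% of all tested genes called. Pim1, a kinase gene, had 103 ± 14.2 CPM in mutant centrocytes against 147 ± 13.9 CPM in control centrocytes (log2 change -0.51 ± 0.12, edgeR adjusted p = 0.00737), and the change was -0.40 without mutant centrocyte libraries 3 and 4 (adjusted p = 0.0863). Prdm1, the plasma cell regulator, changed by -1.35 in centrocytes (adjusted p = 0.0919 without those libraries).

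Of 26 interferon response genes, 3 were higher in centrocytes, Rtp4 by 1.59, Isg20 by 0.61 and Irf7 by 0.51 on the log2 scale, and 1 was lower, Gbp3 by -0.61. The higher calls were lost without mutant centrocyte libraries 3 and 4, which held most macrophage RNA and are the female ones. Rtp4 was then at 0.47 (edgeR adjusted p = 0.589), Isg20 at 0.44 (adjusted p = 0.215) and Irf7 at 0.41 (adjusted p = 0.190), while Gbp3 passed (adjusted p = 0.0293). In centroblasts 4 were higher, Irgm1 by 0.89, Ifi47 by 0.72, Isg20 by 0.59 and Irf7 by 0.51, and 1 was lower, Ifit2 by -1.35. The list medians were 0.20 in centrocytes and 0.17 in centroblasts, beside 0.00 and 0.01 over all tested genes. Of all tested genes 16.5% were called in centrocytes and 10.5% in centroblasts. Of the called genes on all these lists, 6 of 19 in centrocytes and 5 of 13 in centroblasts stayed called with each library left out in turn. They were Il10rb, Ifnar2 and Ebi3 in both, Csf2rb, Il5ra and Pim1 in centrocytes, and Socs5 and, at few reads, Socs2 in centroblasts.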

How the data were processed

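RNA of 16 sorted samples was sequenced from TruSeq libraries, per the labels' protocols. The authors deposited 1 table of raw read counts per gene, and per the submitters' processing notes used Trim Galore, cutadapt, STAR 2.5.3a and featureCounts 1.4.5-p1 on mm10. Strand setting and annotation are not given in the sources used here, so reads of overlapping genes cannot be told apart. From the 49584 deposited genes, 15240 passed filterByExpr by group. Libraries were scaled by TMM and fitted together with 1 term per group in edgeR 4.0.16 (R 4.3.3), with quasi-likelihood tests, 2-sided, adjusted by Benjamini-Hochberg over all tested genes at a threshold of 0.05, and 95% intervals. Levels are CPM, and per kilobase they use merged exon length from GENCODE M21. Totals were 35230563 to 44466911 counts. Precision is limited by the spread between libraries and, for genes with few reads such as Socs2 and Tmprss13, by counting as well.

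The members and lists were chosen with earlier results of these data known. All 10 receptors are named. For each receptor called between genotypes the 3 genes most correlated with it are named, and of each list the called genes and the most abundant uncalled ones. Alternatives were DESeq2 1.42.0, RLE scaling, no filter or a floor of 1 CPM on the mean, a fit of only the groups compared, the replicate number as a block, a GC and length offset, sex as a covariate, each sex alone, immunoglobulin genes left out, and libraries left out. The scripts' tests were tested on simulated data. Whether numbers pair libraries was checked from deviations from group means. The main test did not pair libraries, and the replicate number was a block only in the alternative fits. Same-numbered mutant libraries correlated at 0.263 to 0.327 between cell types, all above 0.1. Control ones correlated at -0.006 to 0.452 and those of different genotype at -0.0886 to 0.344. Control centroblast library 1 correlated at 0.463 with control centrocyte library 2, above every same-numbered control pair. Mutant libraries of different number correlated at -0.378 to 0.325 between cell types. Centroblast library 3 with centrocyte library 4 gave 0.325, and centroblast library 1 with centrocyte library 2 gave 0.286. A shared number is therefore not shown to pair mutant libraries.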

Additional observations from a re-analysis of the deposited data

Results flagged for a closer look

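Of 40 sets of 4 libraries, 10 receptors in 4 groups, 2 had a library far from the other 3 by Dixon's criterion, which chance meets in about 1 in 20 sets. Il2rg was 244.9 CPM in mutant centrocyte library 1, where the other mutant centrocyte libraries had 292 to 293 CPM. Ifngr1 was 92.2 CPM in mutant centroblast library 3, where the nearest other mutant centroblast library had 79.5 CPM.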

How the results depend on the processing

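Over all settings, results that were called between groups kept their direction, with 937 on the same side of the threshold, 227 no longer past it and 0 reversed. These counts take each result in each setting. They pool the receptors with the list genes called between genotypes and with the neighbours Ankrd55 and Tmprss13. Il6st and Il10ra stayed called between genotypes in every setting, and Il6ra in all but females alone in centrocytes (0.61, adjusted p = 0.056). Ifngr2 was not called in either sex alone. The receptors called between genotypes in centrocytes numbered 7 with the GC and length offset, 7 with the replicate block and offset together and 2 in females alone, while all genes called numbered 4329 and 4478 of 15240 and 2145 of 15487 in these settings, against 2517 of 15240, and 3 to 4 with each library left out. In centroblasts 4 were called with each library left out. Between cell types in controls, 4 were called in males alone (2007 of 15390 genes) and 5 to 7 with each library left out. In mutants 5 were called with no filter (2269 of 32901 genes), 5 in males alone (1353 of 15390), 3 in females alone (1060 of 15487), 5 without centrocyte libraries 3 and 4 (1894 of 16029), and 5 to 8 with each library left out. With the replicate block, Ifnar1 was not called between cell types in controls (adjusted p = 0.0578), Il9r was called in mutants as given above, and no other call on a receptor changed.

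Directions turned only where nothing was called, and the cause was not tested. In centroblasts the genotype change was -0.010 for Il2rg, -0.12 for Ifngr1 and -0.039 for Ifnar1 in males alone, and -0.0016 for Il4ra in females alone. In centrocytes Il9r changed by 0.22 with the replicate block, 0.32 with block and offset, 0.079 with the offset, 0.16 with sex as a covariate and 0.85 in males alone, and females alone gave -0.16 for Il21r and -0.0097 for Ifnar1. Between cell types Il6ra differed in controls by -0.081 with the offset, by -0.080 with block and offset and by -0.018 in males alone, and in mutants by 0.0040 among genes of at least 1 CPM, 0.14 in males alone and 0.12 without mutant centrocyte libraries 3 and 4. The interaction was 0.16 for Il6ra in males alone, -0.077 for Il10ra in females alone, and 0.043 for Il6ra and -0.21 for Il6st without mutant centrocyte libraries 3 and 4. With each library left out, the genotype change ranged over -0.033 to 0.072 for Ifngr1 in centroblasts, -0.36 to 0.53 for Il9r and -0.042 to 0.14 for Il21r in centrocytes, the cell type difference of Il6ra in mutants over -0.082 to 0.095, and the interaction over -0.14 to 0.17 for Il6st and -0.16 to 0.012 for Il6ra.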
